A study of Mus musculus with 96 samples.

Results

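Of the 775 consensus peaks of Suz12 in NeuN+ nuclei of the mouse hippocampus, 471 (60.8%) lay at gene promoters, and these promoter peaks are described here. They were taken as the peaks that the deposited annotation placed in its promoter class, 408 within 1 kb of a transcription start site (TSS) and 63 at 1 to 2 kb. The promoter peak farthest from its TSS was that of Zc3h7a at 1995 bp, with a mean value of 122, and the nearest peak outside the class was an intronic peak of Cyp26b1 at 2032 bp, with a mean value of 7.21. The whole series holds 22815 consensus peaks in 6 tables. Mice were 6 months old males on the C57BL/6N background, of 4 genotypes, namely WT (wild type), the single knockouts Mutyh-/- and Ogg1-/-, and their cross DKO (Mutyh-/-xOgg1-/-). The knockouts were constitutive, hippocampi of several animals of one genotype were pooled before nuclei were sorted on the neuronal nuclear protein NeuN, and the NeuN+ fraction thus mixed all hippocampal neuron types. Each antibody (Suz12, H3K27me3 and H3K4me3) was used on 3 replicates per genotype, so that each table holds 12 libraries.

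Suz12 is a core subunit of Polycomb repressive complex 2 (PRC2), which methylates lysine 27 of histone H3. PRC2 is known to sit on unmethylated CpG islands of silent genes, above all genes for transcription factors that pattern the embryo, and H3K27me3 is the mark it leaves there. Promoters that carry H3K27me3 together with H3K4me3, a mark of active promoters, are called bivalent. Mutyh and Ogg1 encode DNA glycosylases that start the repair of oxidised guanine damage, and the study asked whether their loss alters Suz12 occupancy.

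The windows were CpG-rich, as 4 examples show. They are the windows with the highest mean Suz12 value in their gene list and are given as the central 201 bases on the plus strand of GRCm38, in lower case with each CpG in capitals. Hoxa13 (chr6:52260199-52260399) is a Hox gene of distal body parts, Tlx2 (chr6:83069110-83069310) a homeobox gene, Foxl2os (chr9:98956131-98956331) the divergent transcript of the forkhead gene Foxl2, and Notum (chr11:120660626-120660826) encodes a secreted inhibitor of Wnt proteins. All 4 lie within 1 kb of a TSS by the deposited annotation.
Hoxa13: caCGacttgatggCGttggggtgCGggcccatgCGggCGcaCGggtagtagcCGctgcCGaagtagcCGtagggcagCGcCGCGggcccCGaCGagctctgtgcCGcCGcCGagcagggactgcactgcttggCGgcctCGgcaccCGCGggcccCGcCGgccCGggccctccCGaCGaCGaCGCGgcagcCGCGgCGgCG
Tlx2: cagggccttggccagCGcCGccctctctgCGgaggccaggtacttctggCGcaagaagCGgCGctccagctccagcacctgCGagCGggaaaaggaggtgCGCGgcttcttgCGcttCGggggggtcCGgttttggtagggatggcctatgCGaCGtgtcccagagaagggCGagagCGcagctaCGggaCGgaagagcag
Foxl2os: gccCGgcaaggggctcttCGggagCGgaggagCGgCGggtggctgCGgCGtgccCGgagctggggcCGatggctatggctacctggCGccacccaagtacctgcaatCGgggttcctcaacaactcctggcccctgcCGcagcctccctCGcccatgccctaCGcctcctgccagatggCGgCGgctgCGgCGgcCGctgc
Notum: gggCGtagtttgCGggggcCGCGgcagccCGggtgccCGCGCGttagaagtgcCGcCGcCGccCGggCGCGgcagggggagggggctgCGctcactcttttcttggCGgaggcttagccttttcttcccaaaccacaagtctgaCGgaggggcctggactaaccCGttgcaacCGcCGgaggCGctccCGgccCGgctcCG
The shown stretches hold 33, 19, 19 and 24 CpGs in this order. The next 3 windows had the smallest p in a comparison of a knockout with WT, among peaks whose libraries did not overlap between the 2 genotypes: Tbx20 for Mutyh-/- (chr9:24773993-24774193), Aida for Ogg1-/- (chr1:183299218-183299418) and Cyp1b1 for DKO (chr17:79714037-79714237). The last, 4931408C20Rik (chr1:26687511-26687711), had the lowest ratio of observed to expected CpGs among the promoter peaks.
Tbx20: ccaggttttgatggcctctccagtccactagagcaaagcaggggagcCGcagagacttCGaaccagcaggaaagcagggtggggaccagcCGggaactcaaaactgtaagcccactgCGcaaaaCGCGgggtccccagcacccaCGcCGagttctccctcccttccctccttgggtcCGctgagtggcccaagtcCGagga
Aida: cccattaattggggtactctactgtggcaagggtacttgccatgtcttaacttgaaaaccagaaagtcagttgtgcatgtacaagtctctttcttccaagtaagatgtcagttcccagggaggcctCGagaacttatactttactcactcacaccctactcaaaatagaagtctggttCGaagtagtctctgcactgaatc
Cyp1b1: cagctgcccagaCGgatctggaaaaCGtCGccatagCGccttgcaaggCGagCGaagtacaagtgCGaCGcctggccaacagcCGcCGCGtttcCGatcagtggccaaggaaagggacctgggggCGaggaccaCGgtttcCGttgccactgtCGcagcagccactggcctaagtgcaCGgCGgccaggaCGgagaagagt
4931408C20Rik: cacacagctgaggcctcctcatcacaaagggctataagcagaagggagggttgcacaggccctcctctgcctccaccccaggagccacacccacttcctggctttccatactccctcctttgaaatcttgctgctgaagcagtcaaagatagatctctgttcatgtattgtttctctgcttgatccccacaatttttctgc
These stretches hold 10, 2, 19 and 0 CpGs. The Aida and 4931408C20Rik windows thus lacked the CpG density of the other 6.

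The libraries of replicate 1 of Mutyh-/- and of Ogg1-/- stood apart from the other Suz12 libraries. In the first, 12.1% of the reads in peaks lay at promoter peaks and 134 of 471 promoter peaks had no read, while 56.2% of its reads fell on peaks with at least 50% repeat bases. In the other 11 libraries, that repeat share was between 16.4% and 46.7%. The second had the fewest reads in peaks (6652) and 117 promoter peaks without a read.

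Over all 471 windows of 401 bp, the median GC content was 68.6%, the median number of CpGs was 39 and the median ratio of observed to expected CpGs was 0.84. The 304 Suz12 peaks outside promoters had medians of 48.4%, 7 and 0.37. A ratio above 0.6, a usual limit for CpG islands, was found for 402 promoter peaks (85.4%) and for 117 of the other Suz12 peaks (38.5%). The 11771 H3K4me3 promoter peaks, taken as a reference set of promoters, were similar to the Suz12 promoter peaks in base composition, with medians of 67.1%, 35 and 0.80. The 1095 H3K27me3 promoter peaks had a median of only 12 CpGs. Searched on both strands, GGGCGG, the box bound by Sp1, occurred in 66.5% of the Suz12 promoter windows, 21.1% of the other Suz12 windows and 69.3% of the H3K4me3 promoter windows. This box itself contains a CpG. TATAAA was found in 4.25% of Suz12 promoter windows, against 19.1% of other Suz12 windows and 3.15% of H3K4me3 promoter windows. GAGAGA, the letters bound by the GAGA factor in flies, was in 24.2%, 30.3% and 23.8% of the windows in the same order. These matches describe letters in a window and not bound sites.

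The centre of the window lay downstream of the TSS for 349 of 471 peaks (74.1%), at a median of 229 bp. The windows spread over 19 chromosomes, none of them X, with the most on chromosomes 2 (53) and 11 (44). They were annotated to 409 genes, of which 358 had 1 promoter peak, 43 had 2 and 8 had 3 or more. Gata2, Tbx1 and Sfi1 had 4 each. Gata2, a factor of blood and of early neuron types, carried mean values of 15.6, 11.1, 11.3 and 8.11 along its 4 windows, and the 4 windows of Tbx1, the T-box gene of the pharyngeal arches, had 16.0, 8.55, 8.75 and 9.39. Only 2 promoter peaks, one of Sfi1 and that of Mir101c, had at least 50% of bases masked as repeats, against 79 of the 304 other Suz12 peaks.

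Developmental transcription factors made up a large part of these genes. The homeobox and paired box list outside the Hox clusters held 95 peaks at 79 genes, the forkhead, Sox, T-box and Gata list 45 peaks at 34 genes, the zinc finger list 25 peaks at 21 genes, the Hox list 17 peaks at 16 genes and the basic helix-loop-helix (bHLH) list 14 peaks at 13 genes. Together the 5 lists hold 196 promoter peaks (41.6%). No share for other promoter peaks was taken beside this, so it does not measure an excess. The lists were chosen with earlier results of these data known. All Hox clusters were represented, HoxA on chromosome 6 by Hoxa7, Hoxa9, Hoxa10 and Hoxa13, HoxD on chromosome 2 by Hoxd1, Hoxd4, Hoxd8, Hoxd9, Hoxd11 and Hoxd13, HoxB on chromosome 11 by Hoxb6, Hoxb7, Hoxb9 and Hoxb13, and HoxC on chromosome 15 by Hoxc11 and Hoxc13. The Wnt pathway had 19 peaks at 16 genes, among them the ligands Wnt1, Wnt3, Wnt3a, Wnt2b, Wnt8b and Wnt10b, the receptors Fzd2, Fzd5, Fzd10 and Ror2 and the nuclear effectors Lef1 and Tcf7l2. Bone morphogenetic protein (BMP), TGF-beta, FGF and Hedgehog signalling had 10 peaks at 10 genes, including Ihh, Tgfb1, Fgf8, Bmp2 and the inhibitory Smad6.

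Few promoter peaks fell in the lists of receptors, channels, axon guidance and adhesion genes. The sizes of these lists were not taken into account. Transmitter receptors and ion channels had 8 peaks at 6 genes (Adra2b, Galr2, Grin2c and Kcna7 among them), axon guidance had Ntn1 and Ephb4, and cell adhesion and matrix had 6 peaks. Of 20 neuronal identity markers, 2 had a Suz12 promoter peak, Slc32a1, the vesicular GABA transporter, and Lhx6, a factor of interneurons from the ventral forebrain. Of 23 glial and vascular markers, 3 had one, the oligodendrocyte factors Olig1 and Olig2 and the endothelial receptor Flt1. Cbx8 was the single Polycomb gene. No promoter peak lay at a cell-cycle inhibitor of the list, at a gene of the list drawn from the study's own text, or at Mutyh and Ogg1 themselves. The remaining 227 peaks, at 203 genes, belonged to no list.

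The NeuN+ label was examined on H3K4me3. Of the 20 neuronal markers, 15 had an H3K4me3 promoter peak in NeuN+ nuclei (Rbfox3, which encodes NeuN, among them) and 2 in NeuN- nuclei. Of the 23 glial and vascular markers, 4 had one in NeuN+ and 3 in NeuN- nuclei, so these did not separate the fractions. The study reported far fewer H3K4me3 peaks in NeuN- than in NeuN+ nuclei. The neuronal counts thus depend on the number of peaks as well as on the sort. The Suz12 libraries had few reads in peaks, 6652 to 33035, a number that is not their sequencing depth. Spearman correlations between libraries over the 471 promoter peaks lay between 0.065 and 0.527, with a median of 0.283 over 66 pairs. The knockout of each gene could not be checked, since no window covered Mutyh and the H3K4me3 window at Ogg1 does not test the deletion.

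Values are reads per window divided by one factor per library. The mean value of a promoter peak over the 12 libraries had a median of 11.0, with quartiles of 8.73 and 14.4, and ranged from 2.64 to 896. Only 5 peaks had a mean value above 30 and 12 lay under 5. A read in every library was found for 199 peaks (42.3%). Among WT libraries, the SD of log2(value + 1) of a peak had a median of 0.93.

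The highest value belonged to both windows of Rn45s, the 45S precursor of ribosomal RNA, with means of 896 and 645. The gene is repeated many times in the genome, and reads of its copies fall on the few copies of the reference, so these values are uncertain as an occupancy of one promoter. The higher window had 587, 1233 and 1354 in WT, 186, 1149 and 1038 in Mutyh-/-, 286, 1098 and 905 in Ogg1-/- and 530, 1137 and 1244 in DKO. The first library of each genotype was the lowest, and the genotypes overlapped. Zc3h7a followed with a mean of 122, Aida with 92.3 and Sfi1 with 38.9. In Sfi1 the second libraries of WT and Ogg1-/- were at 0, while the other WT libraries stood at 67.0 and 65.8. Whether reads at Zc3h7a, Aida and Sfi1 come from these single loci was not tested. Together with Rn45s, these 5 windows took 24.6% of the summed promoter values.

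Below them stood developmental genes. Tfap2e, an AP-2 factor, had a mean of 27.7, Foxl2os 27.6, Foxe1, the thyroid forkhead factor, 26.6, Foxd2 25.8 and Tlx2 25.1. In WT, Foxe1 had 24.1, 48.5 and 49.7, against 3.28, 53.9 and 15.2 in Mutyh-/-, 4.95, 25.9 and 9.40 in Ogg1-/- and 10.2, 41.7 and 32.3 in DKO. Foxd2 had 6.70, 47.5 and 30.9 in WT and 10.2, 36.5 and 29.9 in DKO. The spread inside one genotype was thus wider than the distance between these 5 peaks.

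Within the lists, median mean values lay close together. They were 13.1 for zinc finger factors, 12.4 for forkhead, Sox, T-box and Gata factors, 11.7 for homeobox factors, 11.3 for BMP, TGF-beta, FGF and Hedgehog signalling, 11.1 for bHLH factors, 10.8 for Hox genes, 10.6 for receptors and channels, 10.2 for the Wnt pathway and 8.92 for adhesion and matrix, beside 11.0 for all promoter peaks and 9.74 for all 775 peaks. The leading Hox peaks were Hoxa13 (20.0), Hoxd9 (18.3) and Hoxa10 (17.6), the leading homeobox peaks after Tlx2 were Nkx2-4 (22.9) and Six2 (22.7), and the leading bHLH peaks were Sim2 (21.4), Olig2 (17.0) and Twist1 (16.8). Among signalling genes, Smad6 had 23.5, Ihh 22.0 and Tgfb1 13.2, and in the Wnt list Notum had 16.0, Lef1 15.7 and Ror2 13.4. The netrin gene Ntn1 had 15.7 and the potassium channel gene Kcna7 18.3, with 14.8, 44.6 and 17.4 in the WT libraries.

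**Figure D1:**
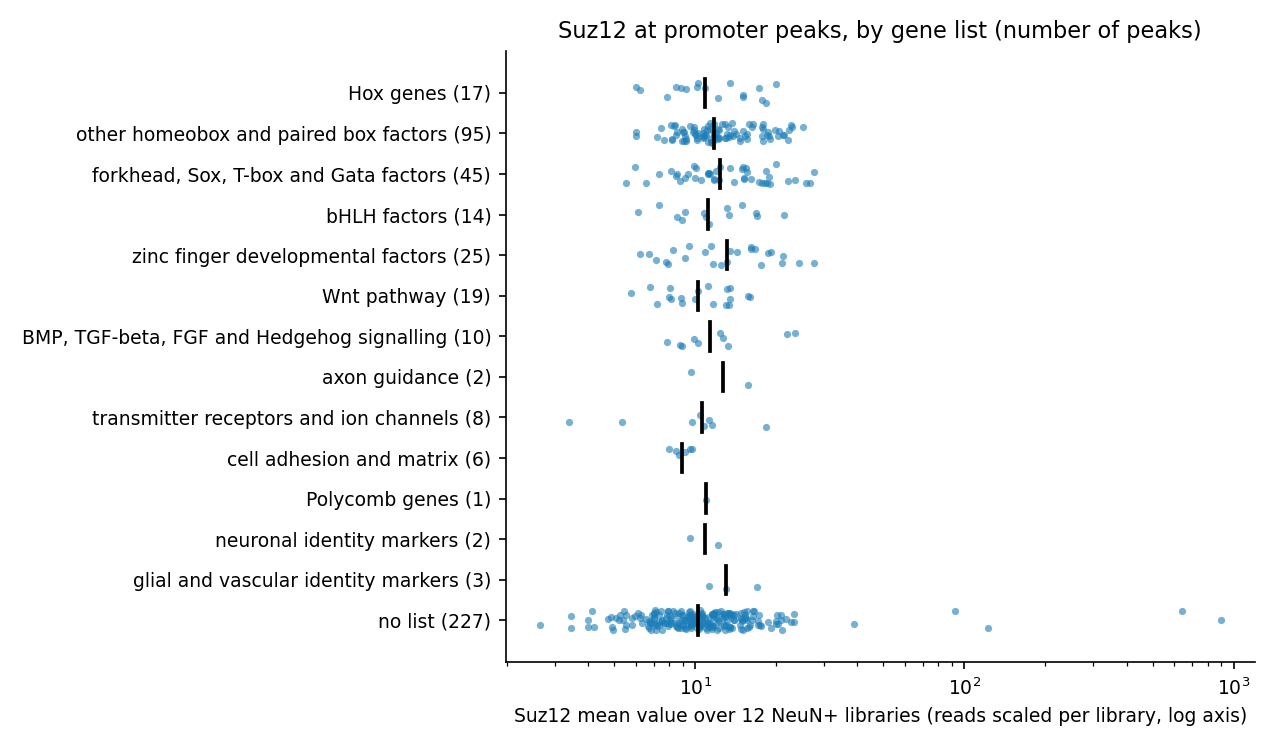
Mean Suz12 value of each promoter peak over the 12 NeuN+ libraries (x axis, reads divided by a factor per library, log scale) by gene list (y axis, number of peaks in parentheses). Each point is a peak and each bar the median of the list. Medians ran from 8.92 to 13.1, and the 5 peaks above 30 belonged to no list.

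Across the 471 peaks, the mean Suz12 value was correlated with the number of CpGs in the window (Spearman's rho = 0.58) and with GC content (rho = 0.55). The points share the same 12 libraries and the same amplification, and a part of base composition in the yield of reads was not tested.

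Suz12 at promoters was compared with Suz12 elsewhere in the same libraries. The mean log2(value + 1) was 3.22 ± 0.89 (SD, n = 12 libraries) over the 471 promoter peaks and 2.63 ± 0.22 over the 304 other peaks, a difference of 0.59 ± 0.75. It was above 0 in 10 of 12 libraries (exact sign-flip test over the libraries, two-sided, p = 0.0273, and the same value after adjustment over 4 such tests). The exceptions were replicate 1 of Mutyh-/- at -0.97 and replicate 1 of Ogg1-/- at -0.43, and the first replicates of WT and DKO were the next lowest at 0.088 and 0.041. With a pseudocount of 4 in place of 1, the p of the same exact test was 0.0615. The test measures agreement between libraries on fixed sets of peaks, and not the spread between peaks.

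Few of these peaks had a counterpart in NeuN- nuclei. A Suz12 peak of the NeuN- table overlapped 27 promoter peaks (5.73%), against 151 of the 304 other Suz12 peaks (49.7%). Among 25 that overlapped one to one, the highest NeuN- mean values were those of Rn45s (416), Aida (140) and Zc3h7a (66.0). In NeuN- nuclei, 56 of 312 Suz12 peaks (17.9%) lay at promoters. The fractions were normalised apart, so that levels were not compared between them.

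H3K27me3 and H3K4me3 were then examined at the same promoters in NeuN+ nuclei. By windows that shared at least 1 bp, 113 of the 471 Suz12 promoter peaks overlapped an H3K27me3 peak, 150 (31.8%) an H3K4me3 peak, 53 both and 261 neither. For the 304 other Suz12 peaks the shares were 26.3% and 28.3%. Since windows were cut to 401 bp, the marks were also compared per gene. An H3K27me3 promoter peak was then present at 275 of 409 genes (67.2%), an H3K4me3 promoter peak at 185, both at 130 (31.8%) and neither at 79 (19.3%). No share for genes without Suz12 was taken beside these, so they do not measure an excess. The median distance from a Suz12 promoter peak to the nearest H3K27me3 peak was 1121 bp, and 215 had one with its centre within 1000 bp.

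**Figure D2:**
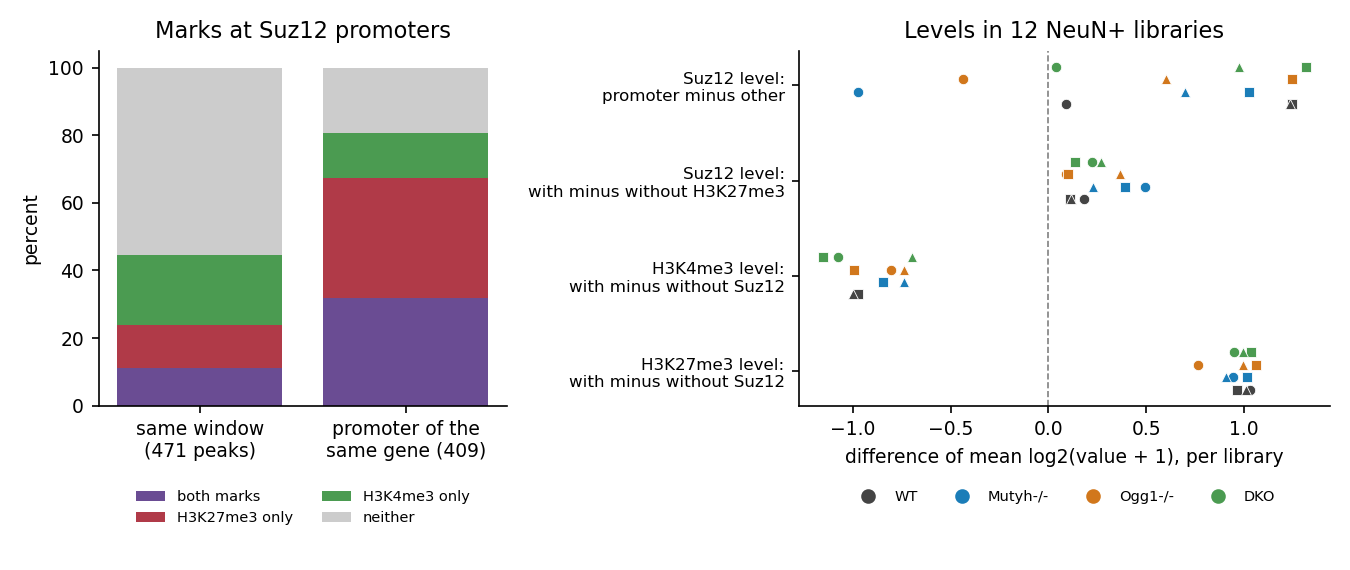
Left, percent of Suz12 promoter peaks (same window) and of their genes (any promoter peak) with H3K27me3, H3K4me3, both or neither in NeuN+ nuclei. Right, difference of mean log2(value + 1) in each of 12 libraries (circles, squares and triangles are replicates 1, 2 and 3), where all H3K27me3 differences lie above 0 and all H3K4me3 differences below 0.

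Overlap with H3K27me3 was found for 13 of 95 homeobox peaks, 8 of 45 forkhead, Sox, T-box and Gata peaks, 1 of 17 Hox peaks and 1 of 14 bHLH peaks, and for 73 of the 227 peaks outside the lists. In the BMP, TGF-beta, FGF and Hedgehog list, 5 of 10 peaks overlapped H3K27me3 and 6 of 10 H3K4me3. H3K4me3 overlapped 10 of 95 homeobox peaks, 1 of 17 Hox peaks and none of 14 bHLH peaks, against 102 of 227 peaks outside the lists. No test was made of these shares. The peaks with both marks and the highest Suz12 values were Zc3h7a, Aida, Ihh (22.0), Onecut3 (21.4) and Clcf1 (20.0), the last a cytokine gene. Among one-to-one overlaps, Aida (140) and Zc3h7a (66.0) also stood next to Rn45s in NeuN- Suz12 values. The mapping of reads at these windows was not tested, so their marks are uncertain. Onecut3, a homeobox factor, had Suz12 values of 32.2, 21.8 and 37.6 in WT and 0.82, 38.3 and 12.2 in Mutyh-/-.

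Levels of the marks were then compared within libraries. The 113 H3K27me3 promoter peaks that overlapped a Suz12 promoter peak had a mean log2(value + 1) of 3.56 ± 0.48 (SD, n = 12), the 982 other H3K27me3 promoter peaks 2.59 ± 0.44, and the difference of 0.97 ± 0.079 was above 0 in 12 of 12 libraries (exact sign-flip test, two-sided, p = 0.000488, the smallest value that 12 libraries allow, adjusted over 4 tests p = 0.000651). For H3K4me3 the order was inverse. The 149 windows with Suz12 had 3.55 ± 0.43, the 11622 without it 4.45 ± 0.35, and the difference of -0.90 ± 0.14 was below 0 in 12 of 12 libraries (same exact test, p = 0.000488, adjusted p = 0.000651). Suz12 itself was higher at the 113 promoter peaks with an H3K27me3 peak (3.39 ± 0.86) than at the 358 without (3.17 ± 0.90), by 0.23 ± 0.13, in 12 of 12 libraries (same exact test, p = 0.000488, adjusted p = 0.000651). These exact tests measure agreement between libraries on fixed sets of peaks, and not the spread between peaks. Over the 113 overlapping pairs, Suz12 and H3K27me3 mean values had a Spearman's rho of 0.46, and over the 150 pairs with H3K4me3 it was -0.26. The points share the chromatin of the same pools and GC content.

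The genotypes were first compared on the mean level over all 471 promoter peaks. It was 2.77, 4.19 and 3.76 in the WT libraries, 1.49, 3.82 and 3.21 in Mutyh-/-, 1.82, 3.77 and 3.20 in Ogg1-/- and 2.61, 3.98 and 4.03 in DKO, on the log2(value + 1) scale. Replicate 1 was the lowest in every genotype, and the genotypes overlapped. The difference from WT was -0.74 for Mutyh-/- (2.84 ± 1.21 against 3.57 ± 0.73, SD, n = 3 each, exact permutation test, two-sided, p = 0.6), -0.65 for Ogg1-/- (2.93 ± 1.00, same exact test, p = 0.6) and -0.033 for DKO (3.54 ± 0.80, same exact test, p = 1.0). A comparison of 3 libraries with 3 cannot give a p under 0.1, and over the 6 tests of level and share the adjusted p was 0.84 or more. On TMM-scaled reads the differences were -0.28, -0.19 and 0.12 in the same order. In pooled nuclei, fewer nuclei with Suz12 at a promoter and less Suz12 per nucleus cannot be told apart.

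Without replicate 1 of Mutyh-/-, the difference in level from WT was -0.059, and without replicate 1 of Ogg1-/- it was -0.091. In Mutyh-/-, same-numbered libraries deviated together from their genotype means (correlations of 0.388, 0.186 and 0.119), and the numbers were assumed to pair them with WT. DKO stood 0.43 above WT without its own replicate 1, 0.28 above it without replicate 2 of WT and 0.059 above it without replicate 3 of WT. By number, Mutyh-/- was below WT by -1.28, -0.37 and -0.55, lower in 3 of 3 pairs, with an exact sign-flip p of 0.25, the smallest value that 3 pairs allow. In Ogg1-/-, whose numbers were not taken as pairs, same-numbered differences were -0.95, -0.42 and -0.56, also below 0 in 3 of 3, with the same exact p.

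The share of reads in peaks that lay at promoter peaks was 37.0%, 43.4% and 57.1% in WT, 12.1%, 46.0% and 46.9% in Mutyh-/-, 38.7%, 50.0% and 32.7% in Ogg1-/- and 34.2%, 54.4% and 40.8% in DKO. Differences from the WT mean of 45.8% ± 10.3 (SD, n = 3) were -10.9 percentage points for Mutyh-/- and -5.35 for Ogg1-/- (exact permutation test, two-sided, p = 0.6 for each) and -2.73 for DKO (same exact test, p = 0.7). Without replicate 1, Mutyh-/- stood 0.594 points above WT. Without replicate 3 of WT, Ogg1-/- stood 0.282 and DKO 2.90 points above WT, and without its own replicate 1 DKO stood 1.75 points above it.

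**Figure D3:**
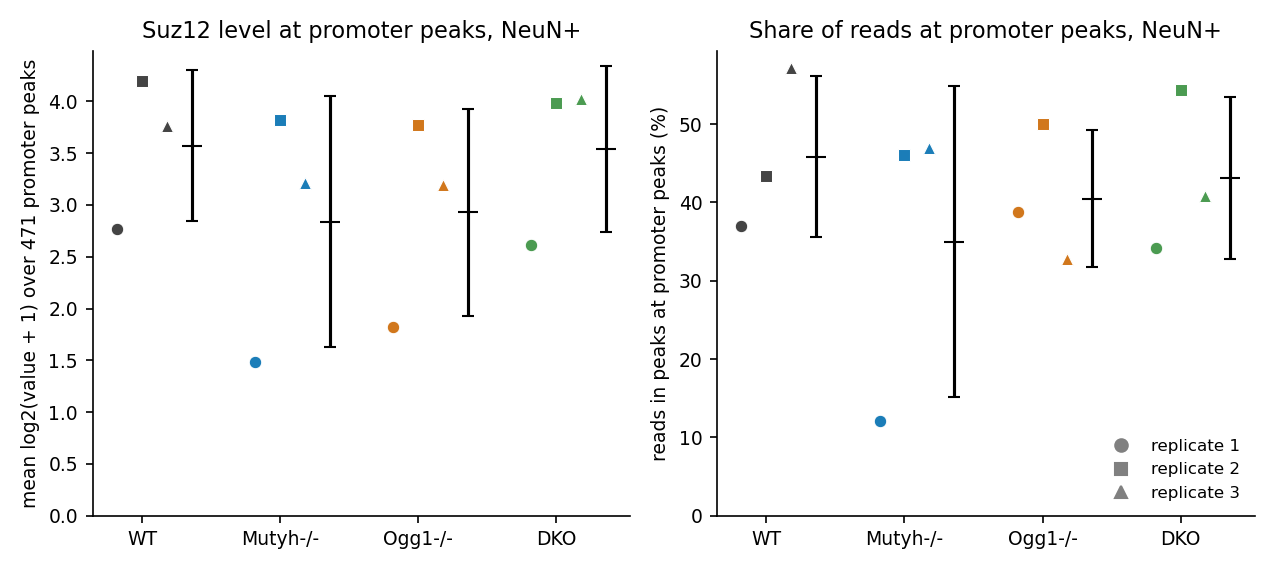
Left, mean log2(value + 1) over the 471 promoter peaks in each Suz12 NeuN+ library. Right, percent of the reads in peaks that lay at promoter peaks. Points are libraries, with replicate 1 as circles, and the bars to their right give mean and SD (n = 3). Replicate 1 was lowest in level in each genotype, and replicate 1 of Mutyh-/- had 12.1% of its reads at promoters.

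Single peaks were then tested. A differentially enriched region (DER) was a peak that differed from WT by more than 0.5 on the log2 scale in either direction with an unadjusted p under 0.05, by limma over all 775 peaks and 12 libraries. In this table the moderated variance took no account of the spread of a single peak. For Mutyh-/-, 17 of 471 promoter peaks (3.61%) were DERs, 16 lower and 1 higher, where 5.16% of all 775 peaks were DERs, 3.23% lower and 1.94% higher. For Ogg1-/-, 8 promoter peaks (1.70%) were DERs, 7 lower and 1 higher, beside 3.74% of all peaks, 2.32% lower and 1.42% higher. For DKO, 5 promoter peaks (1.06%) were DERs, 5 higher and 0 lower, beside 2.58% of all peaks, 1.68% higher and 0.903% lower. In this fit, which had no replicate block, the share of DERs at promoters was below that of all peaks in each knockout. By DESeq2, 3 of 13 promoter DERs were higher in Mutyh-/-, 6 of 23 in Ogg1-/- and 5 of 10 in DKO, and with loess scaling 5 of 14, 15 of 26 and 8 of 11. No promoter peak reached an adjusted p under 0.05 (Benjamini-Hochberg, limma). The smallest adjusted p were 0.916, 0.328 and 0.999, where the numbers with an unadjusted p under 0.05 were 17, 8 and 5.

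With the replicate number as a block, 68 promoter peaks (14.4%) were DERs for Mutyh-/-, 66 lower and 2 higher, beside 13.3% of all 775 peaks, and they included the 17. The promoter share was then above that of all peaks. The smallest adjusted p among them was 0.331. Single libraries decided these counts. In the fit without a block, the Mutyh-/- count was 3 without its replicate 1, 40 without its replicate 2, 8 without its replicate 3, 3 without replicate 2 of WT and 6 without replicate 3 of WT. The Ogg1-/- count was 2, 37 and 15 without its replicates 1, 2 and 3, and 17, 4 and 3 without those of WT. The DKO count was 3 without its replicate 2, 1 without its replicate 3 and 2 without replicate 3 of WT.

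The median log2 fold change over the 471 promoter peaks was -0.74 for Mutyh-/- with 400 of them (84.9%) below 0, -0.61 for Ogg1-/- with 382 (81.1%) below 0, and -0.075 for DKO with 250 (53.1%) below 0. Over all 775 peaks the medians were -0.63, -0.57 and -0.061. The 3 comparisons share the WT libraries. Without overlap between libraries, 31 of 471 promoter peaks lay below WT and 0 above it in Mutyh-/-. Among all 775 peaks, 45 (5.81%) lay below and 14 (1.81%) above. In Ogg1-/- 35 lay below and 1 above, beside 50 (6.45%) and 14 (1.81%) of all peaks. In DKO 16 lay below and 4 above, beside 28 (3.61%) and 16 (2.06%). The promoter shares below WT were thus near those of all peaks.

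**Figure D4:**
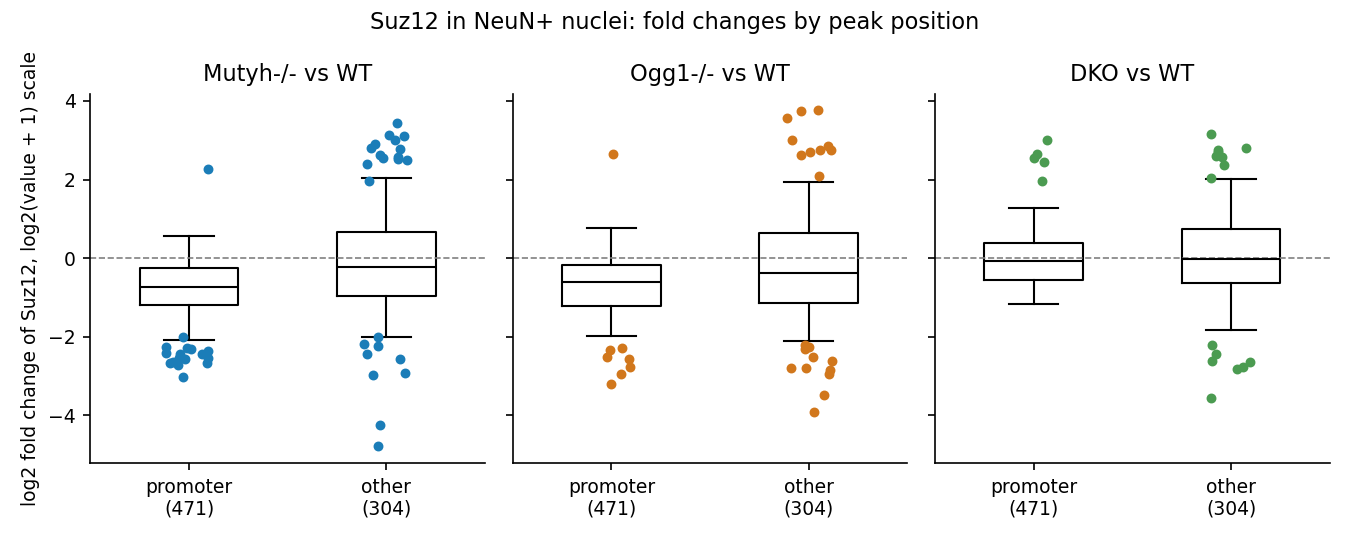
Log2 fold changes of Suz12 against WT (y axis, log2(value + 1) scale) at the 471 promoter and 304 other peaks for each knockout. Boxes give quartiles and median, whiskers the 5th and 95th percentiles, and coloured points the DERs. Promoter DERs were 16 of 17 lower in Mutyh-/-, 7 of 8 lower in Ogg1-/- and 5 of 5 higher in DKO.

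By list, the DERs of Mutyh-/- were 4 homeobox peaks (Pitx3, Lhx5 and Drgx among them), 4 peaks of the forkhead, Sox, T-box and Gata list (Tbx20, Sox17, Sox1 and Tbx15) and 1 receptor, Galr2, all lower, with 8 outside the lists. The median log2 fold change was -0.80 over the 95 homeobox peaks, with 83 below 0, and -0.77 over the 45 forkhead, Sox, T-box and Gata peaks, beside -0.74 over all promoter peaks. Hox genes had 0 DERs in Mutyh-/- and Ogg1-/- (medians of -0.61 and -0.61) and 1 in DKO, Hoxb13, which was higher. In Ogg1-/-, the forkhead, Sox, T-box and Gata list had 4 DERs (Foxl1, T, Tbx15 and Tbx20), all lower, and the Wnt list 1, Fzd5, with a median log2 fold change of -1.01 over the 19 Wnt peaks. The other 3 were Aida, Trim47 and the homeobox gene Dmbx1, which the lists left out. Dmbx1 had 9.39, 27.7 and 26.8 in WT and 0, 9.42 and 0 in Ogg1-/-. Its log2 fold change was -3.21 (SE 1.11, adjusted p = 0.328, limma). The homeobox gene Rax, a DER in DKO, was also in no list. Zinc finger, bHLH, BMP and adhesion lists had 0 DERs in each knockout. The values given below for a gene are those of a single window. Sox17, Galr2, Esrp1, Trim47, Cyp1b1 and Coil each had 2 promoter peaks, and only the window given was a DER in the knockout named.

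Tbx20, a T-box gene of heart and motor neurons, had 6.70, 11.9 and 38.9 in WT and 0, 6.21 and 0 in Mutyh-/-. The highest Mutyh-/- library was below the lowest WT library, with 29 reads at most in any WT library and 6 in Mutyh-/-. Its log2 fold change was -3.03 (SE 1.26, adjusted p = 0.916, limma). In Ogg1-/- it had 0, 2.36 and 4.70, also a DER, and in DKO 2.55, 26.1 and 10.2. It was no DER without replicate 1 of Mutyh-/- (log2 fold change -2.56), without its replicate 3 (-2.56) or without replicate 3 of WT (-2.37).

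Sox17, an endoderm and endothelial factor, had 17.4, 28.7 and 6.71 in WT and 0, 3.11 and 3.04 in Mutyh-/-. The fitted log2 difference was -2.66 (SE 1.13, adjusted p = 0.916, limma). Values in Ogg1-/- (2.97, 20.0 and 15.0) and DKO (9.35, 29.2 and 12.6) overlapped WT. It was no DER without replicate 1 of Mutyh-/- (log2 fold change -1.99) or without replicate 2 of WT (-2.22). Galr2, a receptor for the neuropeptide galanin, had 13.4, 18.8 and 16.1 in WT and 0.82, 9.32 and 0 in Mutyh-/- (log2 fold change -2.67, SE 1.16, adjusted p = 0.916, limma). All 3 WT libraries stood above all 3 Mutyh-/- libraries. It was no DER by edgeR with either set of factors, without replicate 3 of Mutyh-/- (log2 fold change -1.97) or without replicate 2 of WT (-2.56).

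Esrp1, an epithelial splicing factor, had 9.39, 29.7 and 26.8 in WT and 2.46, 9.32 and 0 in Mutyh-/-, where the closest libraries differed by less than 1 unit. Its log2 fold change was -2.65 (SE 1.16). Lhx5, a LIM homeobox factor of the forebrain and spinal cord, had 17.4, 25.7 and 20.1 in WT and 0, 3.11 and 15.2 in Mutyh-/- (log2 fold change -2.43, SE 1.13). Both had an adjusted p of 0.916, and under the edgeR test on whole reads neither was a DER.

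In Ogg1-/-, the smallest p among DERs with no overlap belonged to Aida, whose product inhibits axis formation in embryos. It had 88.5, 77.2 and 0 in WT and 105, 132 and 123 in Ogg1-/-, a log2 fold change of 2.65 (SE 0.87, adjusted p = 0.328, limma). The third WT library had no read, and without it the log2 fold change was 0.53 and Aida was no DER. Aida was also a DER in Mutyh-/- (175, 112 and 39.5) and DKO (32.3, 103 and 121), where libraries overlapped WT and the same WT libraries were used.

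Fzd5, a Wnt receptor, had 13.4, 12.9 and 22.8 in WT and 0, 9.42 and 0 in Ogg1-/- (log2 fold change -2.95, SE 1.20, adjusted p = 0.899, limma). T, the Brachyury gene of the early mesoderm, had 24.1, 14.9 and 16.1 in WT and 0, 9.42 and 4.70 in Ogg1-/- (log2 fold change -2.28, SE 1.08, adjusted p = 0.915, limma). Each stood below WT in every library. Without replicate 1 of Ogg1-/-, neither was a DER, with log2 fold changes of -2.38 for Fzd5 and -1.30 for T.

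Trim47, of the tripartite motif family, had 8.05, 7.92 and 6.71 in WT and 0, 0 and 0.94 in Ogg1-/-, that is 6, 8 and 5 reads against 0, 0 and 1 (log2 fold change -2.78, SE 1.25). Tbx15, a T-box gene of the skeleton and skin, had 5.36, 13.9 and 6.71 in WT and 0, 0 and 2.82 in Ogg1-/- (log2 fold change -2.53, SE 1.23), and 0.82, 1.04 and 0 in Mutyh-/-. Both had an adjusted p of 0.915. Tbx15 was no DER in 9 of 17 alternatives, among them edgeR, DESeq2 and leaving out replicate 1 or replicate 2 of Ogg1-/-, and Trim47 in 3 of 17. In DKO, Tbx15 had 0, 16.7 and 18.9, so that 2 of 3 DKO libraries stood above all WT libraries.

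In DKO, the DERs were higher than WT, and the 3 without overlap had at most 27 reads in any library. Cyp1b1, a cytochrome P450 enzyme, had 0, 2.97 and 0 in WT and 7.65, 11.5 and 18.1 in DKO, or 3 reads in all WT libraries against 9, 11 and 23 (log2 fold change 3.01, SE 1.25, adjusted p = 0.999, limma). Rax, a homeobox factor of eye and hypothalamus, had 1.34, 1.98 and 0 in WT and 5.10, 17.7 and 11.0 in DKO (log2 fold change 2.54, SE 1.24). Coil, which encodes the Cajal body protein coilin, had 4.02, 0 and 0 in WT and 5.95, 4.17 and 21.3 in DKO (log2 fold change 2.44, SE 1.20). Both had an adjusted p of 0.999. The call was lost in 4 of 17 alternatives for Cyp1b1, 6 of 17 for Rax and 8 of 17 for Coil. The edgeR test on whole reads gave 0 promoter DERs for DKO with the authors' factors and 2 with TMM factors.

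**Figure D5:**
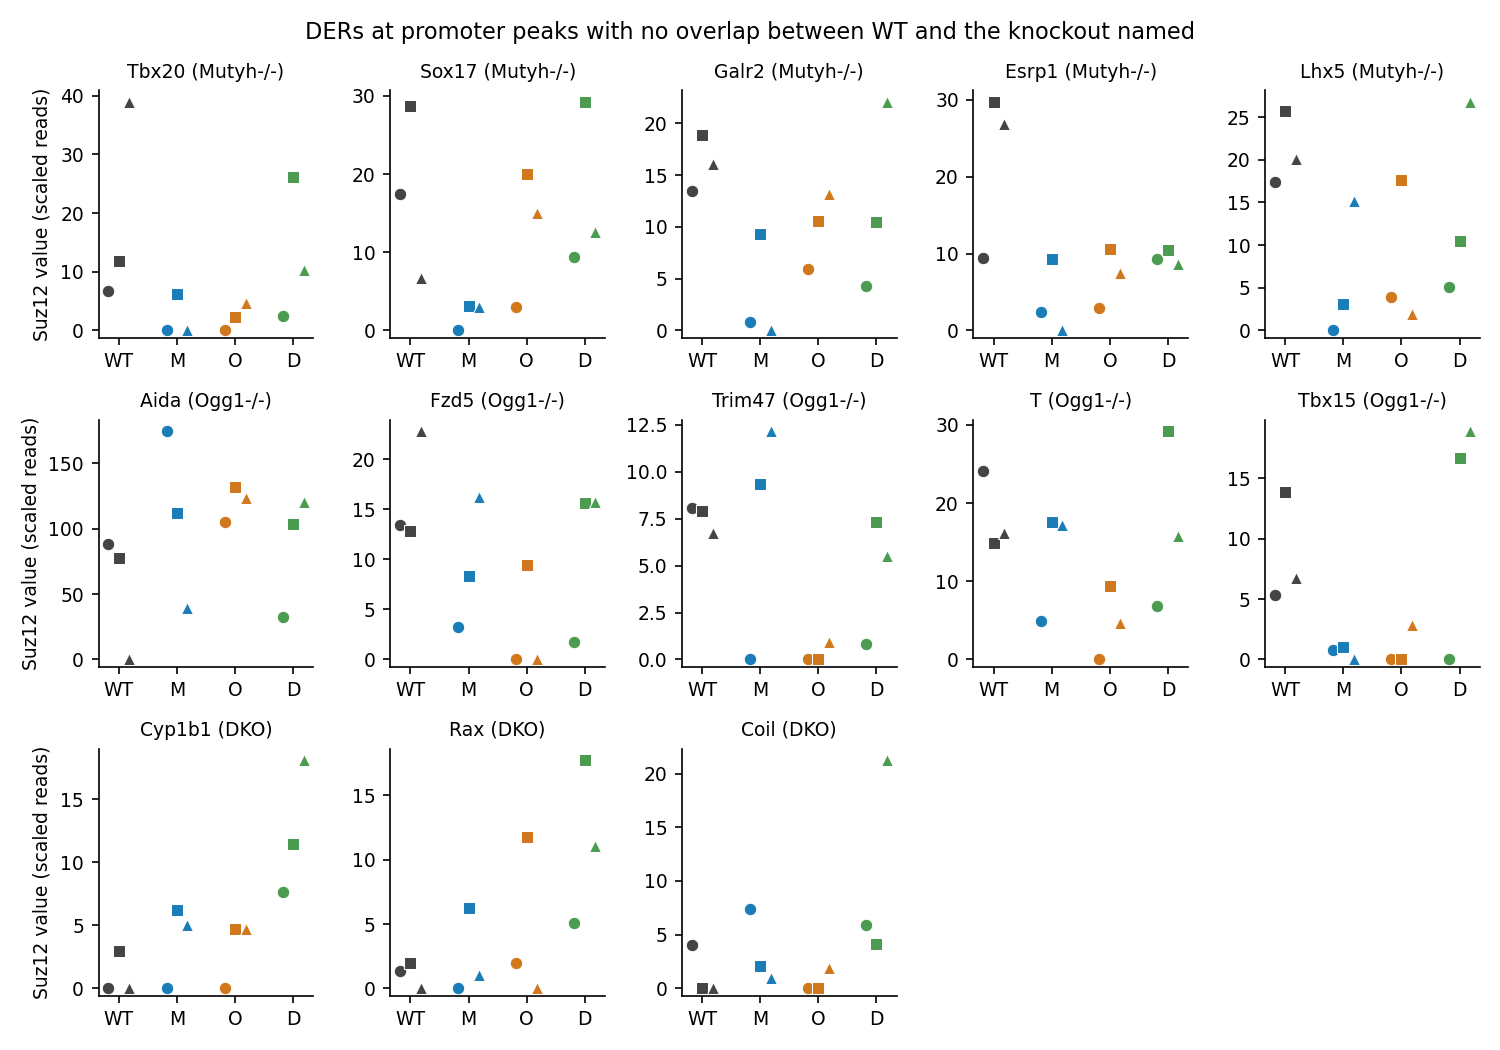
Suz12 value (y axis, reads divided by a factor per library) in each library of WT, Mutyh-/- (M), Ogg1-/- (O) and DKO (D) at the named promoter DERs, with the knockout of the comparison in parentheses. Circles, squares and triangles are replicates 1, 2 and 3. Libraries of WT and the named knockout do not overlap in any panel, which the choice of peaks fixed.

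A non-additive effect, DKO minus both single knockouts plus WT, was found by the same limits at 19 promoter peaks (4.03%), 18 positive and 1 negative, beside 5.16% of all peaks. None had an adjusted p under 0.05 (smallest 0.627, limma). The smallest p belonged to Tbx20 (log2 effect 4.97, SE 1.78), Tbx15 (4.72, SE 1.74) and Lef1, a Wnt effector (4.06, SE 1.52). Lef1 had 2 promoter peaks, and only this window met the limits. It had 13.4, 21.8 and 30.9 in WT, 0, 15.5 and 10.1 in Mutyh-/-, 0, 17.7 and 7.52 in Ogg1-/- and 16.1, 20.9 and 33.9 in DKO. The first library of both single knockouts had no read there, and the libraries of DKO overlapped those of WT. Aida was the negative one. The count was 7 without replicate 1 of Mutyh-/-, 9 without replicate 1 of Ogg1-/-, 9 without replicate 2 or replicate 3 of WT, 8 without replicate 2 and 5 without replicate 3 of DKO. It was 54 without replicate 2 of Mutyh-/-, 49 without replicate 2 of Ogg1-/- and 29 without replicate 1 of DKO.

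The histone marks at these promoters were tested in their own tables. Of the 113 H3K27me3 windows that overlapped a Suz12 promoter peak, 8 were DERs in Mutyh-/- (7 lower), 6 in Ogg1-/- (5 lower) and 5 in DKO (3 lower), that is 7.08%, 5.31% and 4.42%, beside 3.78%, 3.82% and 3.36% of all 4132 H3K27me3 peaks. Of the 149 H3K4me3 windows, 3, 6 and 7 were DERs (2.01%, 4.03% and 4.70%), beside 0.911%, 0.966% and 1.46% of all 12628 H3K4me3 peaks. No such window had an adjusted p under 0.05 (limma), with the smallest at 0.492. With robust empirical Bayes, added after seeing the data, the H3K4me3 count of Ogg1-/- was 3. Among the H3K27me3 DERs were Id3 in Mutyh-/- and DKO, Nr5a1 in Mutyh-/-, Gata2 and Smad6 in Ogg1-/- and Lhx3 in DKO.

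Suz12 DERs and mark DERs were also counted at the same windows. Of the promoter peaks that overlapped an H3K27me3 window, 3 were Suz12 DERs in Mutyh-/- (Aida, Esrp1 and Tbx15), 2 in Ogg1-/- (Aida and Tbx15) and 2 in DKO (Aida and Cyp1b1), and 0 of the H3K27me3 windows there were DERs in the same knockout. Of those that overlapped an H3K4me3 window, 5, 2 and 3 were Suz12 DERs, again with 0 H3K4me3 DERs at the same window. With so few DERs of either kind, nothing is read from these counts of 0. Over the 113 pairs, log2 fold changes of Suz12 and H3K27me3 had Spearman's rho of 0.13 in Mutyh-/-, 0.14 in Ogg1-/- and 0.028 in DKO. The 3 comparisons share the WT libraries of each table.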

How the data were processed

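Per the labels and the study's methods, reads from one end of each fragment were mapped by the authors with Bowtie2 (2.3.5.1) to mm10, that is GRCm38. Peaks came from epic2 (the submitters' processing notes list SICER), consensus peaks were counted in DiffBind (3.10.1), and ChIPseeker (1.36) gave the gene annotation. How duplicates, blacklists and inputs were treated is not given in the sources used here. The values deposited by the authors are a signal, namely the reads of a 401 bp window over a factor of its library. In each library 100% of values were whole multiples of one step (tolerance 1e-06), so whole reads were recovered. Antibody and fraction of a column were read from its table and matched to the label. The 24 input libraries were not used here. The Suz12 NeuN+ libraries had 6652 to 33035 reads in peaks, which is not their sequencing depth.

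limma (3.58.1) with a trend was run on log2(value + 1) for the 775 Suz12 NeuN+ peaks and 12 libraries, with genotype as the only term and Benjamini-Hochberg adjustment over the table. Fold changes on this scale understate changes of low windows. The fit was tested on simulated data. Alternatives were edgeR (4.0.16) and DESeq2 (1.42.0) on the recovered reads, other scalings, pseudocounts of 0.5 and 4, filters, a replicate block and leaving out libraries. In Mutyh-/- the correlations of same-numbered libraries (0.388, 0.186 and 0.119) all exceeded 0.1, and the numbers, from the labels, were taken to pair them. The labels state no pairing, and differently numbered libraries were not compared. In Ogg1-/-, values of 0.285 and 0.226 also exceeded 0.1. The pairing is thus an assumption, and the replicate block covered all 4 genotypes. Replicates are pools of animals, so p-values measure the spread between pools. Sequence was read from GRCm38, and motifs were counted on both strands.

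Promoter peaks and gene lists were chosen with earlier results of these data known. Named peaks were the 10 highest, up to 3 per list, up to 5 DERs per knockout with no overlap with WT, up to 5 with both marks, and up to 3 highest in NeuN-. Further DERs, non-additive peaks and mark DERs were named after their values were seen.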

Additional observations from a re-analysis of the deposited data

How the results depend on the processing

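The counts of DERs at promoter peaks moved most. For Mutyh-/- (17), edgeR gave 5 with the authors' factors and 5 with TMM factors, a fit of the 2 genotypes alone gave 10, and the replicate block 68. For Ogg1-/- (8), edgeR with the authors' factors gave 5, DESeq2 23 (6 higher), loess scaling 26 (15 higher) and the replicate block 63 (1 higher), that is 13.4% of promoter peaks beside 12.6% of all peaks. For DKO (5), edgeR gave 0 with the authors' factors and 2 with TMM factors, DESeq2 10 (5 higher), loess scaling 11 (8 higher), leaving out the lowest 25% of peaks 1, the 2 genotypes alone 3, the replicate block 13 (9 higher, 2.76% beside 4.90% of all peaks) and promoters within 1 kb alone 2. The non-additive count (19) was 8 by edgeR and 95 with the replicate block (20.2% beside 18.1%), both chosen after seeing the data. Leaving out 1 library gave 3 to 40 DERs for Mutyh-/-, 2 to 37 for Ogg1-/-, 1 to 7 for DKO and 5 to 54 for the non-additive effect. The cause of these differences was not tested.

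Correlations of same-numbered libraries were 0.285, 0.226 and 0.071 for Ogg1-/- and 0.213, 0.177 and 0.040 for DKO. With a value below 0.1 in each, these samples were taken to share only a number. This was a choice, and a shared effect of the replicate number was not tested. The mean level differed by -0.74 for Mutyh-/- in the block as without it, and no adjusted p under 0.05 arose at a promoter peak with the block.

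With 1 library left out, the difference in mean log2 level ranged from -1.23 to -0.059 for Mutyh-/-, from -1.07 to -0.091 for Ogg1-/- and from -0.43 to 0.43 for DKO, and that in the share of reads from -16.8 to 0.594, from -10.1 to 0.282 and from -8.36 to 2.90 percentage points. On TMM-scaled reads the level differed from WT by -0.28 for Mutyh-/-, -0.19 for Ogg1-/- and 0.12 for DKO. The level of promoter over other Suz12 peaks was 0.30 (exact p = 0.0615) with a pseudocount of 4. In the 3 WT libraries alone, where 0.25 is the smallest exact p, the level differences were 0.85 (promoter over other), 0.14 (with over without H3K27me3), 1.00 (H3K27me3) and -0.98 (H3K4me3). Overlap of at least 200 bp left 59 promoter peaks with H3K27me3 (113 at 1 bp), 43 with NeuN- H3K27me3 (79) and 30 with NeuN- H3K4me3 (46), and centres within 1000 bp gave 215 and 149 for H3K27me3. For H3K27me3 in NeuN+ nuclei the promoter share at 200 bp was 12.5%, beside 20.7% of the other Suz12 peaks. By centres it was 45.6%, beside 39.8%. H3K4me3 DERs in Ogg1-/- numbered 3 in place of 6 with robust empirical Bayes. A further 124 values under an alternative kept their direction, their side of the threshold or, for counts, stayed within 1.5 times. No log2 fold change of a named DER turned, with 163 alternative values past the limits and 66 not, and their adjusted p ranged from 0.0613 to 1.0. Read counts at promoter peaks were low, with 199 of 471 promoter peaks read in every library.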
